A study of Mus musculus with 7 samples.

Results

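The genes described here are the 8 members of the MHC class II presentation pathway in the deposited tables: H2-Aa, H2-Ab1, H2-Eb1, Cd74, H2-DMa, H2-DMb1, H2-DMb2 and Ciita. They were taken by name from 21878 genes, and all 8 passed the low-count filter that left 14609 genes. All RNA was abdominal aorta RNA, from C57BL/6 males 8 weeks of age that received angiotensin II, a vasoconstrictor hormone used to provoke aneurysm, over as many as 28 days. The 3 control libraries (ApoE 1 to ApoE 3) were labelled ApoE-/-, the loss of the apolipoprotein that clears remnant lipoproteins. The other 4 libraries (DKO 1 to DKO 4) were labelled ApoE-/-Nur77-/- and so carry the Apoe deletion too, with loss of the nuclear receptor Nur77, encoded by Nr4a1, added to it. The labels do not give the deleted parts of either gene, the stage of aneurysm, or whether libraries are different mice, and the p-values below therefore reflect only how these libraries spread, which may be technical. The question is how class II expression in this tissue differs when Nur77 is lost as well as ApoE.

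MHC class II molecules are pairs of an alpha and a beta chain that show peptides from taken-up protein to CD4 T cells. Dendritic cells, B cells and activated macrophages carry them, and interferon gamma induces them in other cells. CD74, the invariant chain, holds the groove closed until proteases trim it in the endosome, and the DM pair then exchanges the remaining fragment for peptide. CIITA, the class II transactivator, binds no DNA itself and acts through factors held on a shared promoter element: the X box, bound by the RFX complex and CREB, and the Y box, bound by NF-Y. C57BL/6 mice have no working E alpha chain, so their H2-Eb1 message has no partner at the cell surface.

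Stretches of promoter are shown because this shared element is what ties the members to Ciita. They come from RefSeq windows on GRCm38.p6 that run from 250 bases before a start listed for a gene to 50 after it. Of the 8 members 5 matched (H2-Ab1, Cd74 and Ciita did not). The windows of H2-DMa lie inside the gene span given below, not at its first base, and are not shown. Capitals mark a match to AACNGATG or TGACGTCA, letters of the X box region, and to ATTGG, the core of the Y box. Each stretch is read 5′ to 3′ on the gene's own strand.
H2-Aa: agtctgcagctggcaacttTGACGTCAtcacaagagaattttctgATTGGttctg
H2-Eb1: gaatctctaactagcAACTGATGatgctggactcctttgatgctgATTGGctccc
H2-DMb1: cctagtAACTGATGatgctaggctgattca
H2-DMb2: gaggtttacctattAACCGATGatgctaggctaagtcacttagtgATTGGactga
H2-Eb2: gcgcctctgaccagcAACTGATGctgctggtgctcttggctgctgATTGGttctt
H2-Ob: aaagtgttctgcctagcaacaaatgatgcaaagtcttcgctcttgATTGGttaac

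The stretches lie at chr17:34287862-34287916 on the minus strand for H2-Aa, and on the plus strand at chr17:34305763-34305817 for H2-Eb1, chr17:34153093-34153122 for H2-DMb1, chr17:34145114-34145168 for H2-DMb2, chr17:34325530-34325584 for H2-Eb2 and chr17:34238803-34238857 for H2-Ob. The last pair are class II chains outside the member list. H2-DMb1 is cut to 30 bases because an annotated exon reaches into its window, and its ATTGG starts 61 bases before the RefSeq start. ATTGG stood 48 bases before the start in H2-Aa and 59 in H2-Eb1. In H2-DMb2 it stood 90 bases before the start that its window uses. That start and the stretch shown lie inside the gene span given below, which begins at chr17:34143229. In H2-Eb1, 22 bases lay between AACNGATG and ATTGG, and in H2-DMb1 and H2-DMb2 there were 23. Searched on both strands, ATTGG was in 37.4% of 32851 promoter windows, AACNGATG in 2.32% and TGACGTCA in 1.79%. A longer X box pattern, AG then any 2 bases then ACNGATG, was in 0.968%, H2-Eb1 and H2-DMb1 among them. AACNGATG followed within 40 bases by ATTGG on the same strand was in 14 windows (0.0426%), among them those of H2-Eb1, H2-DMb1, H2-DMb2 and H2-Eb2. The windows of H2-Aa, H2-DMa, H2-Ob and H2-Oa were not among them. The stretch of H2-Oa, a further class II chain, is not shown. Its window held the longer X box pattern at -141 and ATTGG at -43 relative to the start. AACNGATG and TGACGTCA were picked after reading these windows, so the counts are a description.

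The libraries held 19295287 to 21727192 counts. Levels are in CPM, that is, counts relative to the effective size of the library. A gene with no count could still stand at 0.133 to 0.164 CPM, depending on the library, taking 3 counts as the floor (counting error only). Nr4a1 was still read in the libraries labelled double knockout (46.2 to 92.7 CPM, against 56.4 to 193 in those labelled ApoE-/-), and Apoe was read in every library (18.3 to 34.7 against 184 to 250.3 CPM). Though both labels name its deletion, Apoe was called lower in the double knockout libraries (log2 fold change -2.95, edgeR adjusted p = 0.0227). Nr4a1 was not called (log2 fold change -0.75, edgeR adjusted p = 0.360). The reason was not tested. Directions below compare libraries by label only, double knockout (DKO) against ApoE-/-. Smooth muscle genes marked every library as artery wall (6 genes, summed 7924 to 28720 CPM). A list of 5 cardiomyocyte genes summed to 219.7 CPM in ApoE 2 and 842 CPM in ApoE 3 and to between 4.57 and 16.0 CPM elsewhere. Some results, though not all, are therefore also given without 1 or both of those libraries.

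No member was called different between the genotypes. With edgeR's quasi-likelihood test, 0 of 8 passed an adjusted p of 0.05 (Benjamini-Hochberg over 14609 genes), where 0.0274% of all genes did, every one of them lower. At an unadjusted p of 0.05 there were again 0 of 8, against 19.8% of all genes, and 0 of 8 had groups that did not overlap, against 16.3% of all genes (7.08% higher and 9.24% lower in DKO libraries). DESeq2, which called 8.03% of all genes with an adjusted p, and limma voom, which called 16.2%, also called 0 of the 8. All 8 log2 fold changes were above 0, with a median of 0.15 against -0.02 over all tested genes. The members are not independent of each other, and without ApoE 3 the median was -0.04. It was 0.28 without ApoE 2, 0.27 without DKO 2, 0.06 without DKO 3, 0.09 without DKO 4, and 0.01 without ApoE 2 and ApoE 3 together.

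**Figure D1:**
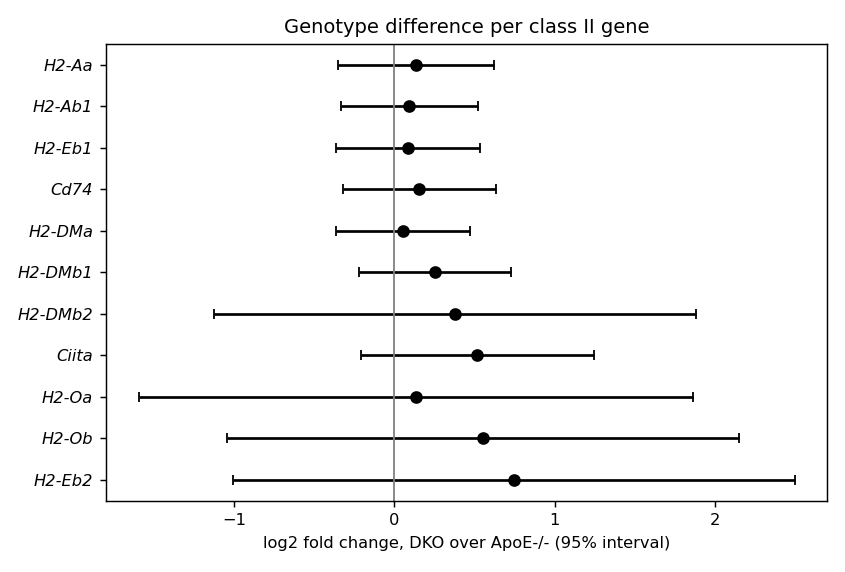
Log2 fold change of DKO over ApoE-/- libraries (horizontal axis) for the 8 members and 3 further class II chains (vertical axis), points with 95% intervals from edgeR's quasi-likelihood fit. Every interval includes 0, from the narrow one of H2-DMa (-0.36 to 0.47) to the wide one of H2-Eb2 (-1.004 to 2.496).

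The classical chains and the invariant chain were the abundant members. H2-Aa, the A alpha chain (GRCm38.p6 chr17:34282744-34287823, minus strand), was at 455, 488 and 298 CPM in ApoE 1 to ApoE 3 and at 443, 352, 516 and 508 CPM in DKO 1 to DKO 4. DKO 3 and DKO 4 were highest, ApoE 3 was lowest, and the groups overlapped. The means were 414 ± 102 CPM (SD, n = 3) and 455 ± 76.2 CPM (SD, n = 4), a log2 fold change of 0.14 (SE 0.21, edgeR adjusted p = 0.755). The 95% interval of the fold ran from 0.78-fold to 1.54-fold.

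H2-Ab1, the A beta chain that pairs with H2-Aa (chr17:34263227-34269418, plus strand), was at 478, 521 and 338 CPM in the ApoE-/- libraries and at 452, 392, 528 and 531 CPM in the DKO libraries. H2-Eb1, the E beta chain (chr17:34305867-34316674, plus strand, overlapped by the antisense gene Gm20513), was at 445, 461 and 302 CPM against 409, 336, 478 and 486 CPM. The library order was the same for this pair, with ApoE 3 lowest and DKO 4 highest. Their log2 fold changes were 0.09 (SE 0.18, edgeR adjusted p = 0.817) for H2-Ab1 and 0.09 (SE 0.19, adjusted p = 0.847) for H2-Eb1. H2-Ea-ps, the broken E alpha gene, had no count in any of the 7 libraries.

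Cd74 (chr18:60803849-60812652, plus strand) was at 1134, 1206 and 762.5 CPM in the ApoE-/- libraries and at 1141, 902, 1297 and 1269.6 CPM in the DKO libraries. It spanned 1.70-fold from ApoE 3 to DKO 3, beside 1.73-fold for H2-Aa, 1.57-fold for H2-Ab1 and 1.61-fold for H2-Eb1. The means, 1034 ± 238 CPM (SD, n = 3) and 1152 ± 180.3 CPM (SD, n = 4), gave a log2 fold change of 0.16 (SE 0.20, edgeR adjusted p = 0.706). Without ApoE 3 it was -0.02.

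The DM chains load peptide, and 3 members encode them. H2-DMa, the alpha chain (chr17:34119693-34139101, plus strand), was at 38.9, 40.3 and 27.6 CPM against 35.7, 29.1, 42.2 and 41.1 CPM (log2 fold change 0.06, SE 0.18, edgeR adjusted p = 0.893). H2-DMb1, a beta chain (chr17:34153191-34160229, plus strand), was at 42.5, 45.6 and 32.3 CPM against 41.5, 36.0, 54.4 and 59.2 CPM (log2 fold change 0.25, SE 0.20, adjusted p = 0.518). Of the 8 members it was the one whose fold change stayed above 0 under all 18 alternative settings. DKO 4 held its highest level and ApoE 3 its lowest.

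H2-DMb2, the other beta chain (chr17:34143229-34151553, plus strand), was far rarer, with 62, 186 and 30 counts in the ApoE-/- libraries and 119, 75, 240 and 62 counts in the DKO libraries. These were 3.07, 8.55 and 1.64 CPM against 5.70, 3.52, 10.7 and 3.17 CPM. ApoE 2 and DKO 3 were high, and the lowest and highest libraries lay 6.51-fold apart, against 1.83-fold for H2-DMb1. The log2 fold change of 0.38 had an SE of 0.64 (edgeR adjusted p = 0.784), and it was -0.01 without ApoE 3, -0.10 without DKO 3, 1.29 without ApoE 2 and -0.72 with the level of the leukocyte gene Ptprc as a covariate. Of the longest coding transcript of H2-DMb2 (GENCODE M21), 25.2% of all 50-base stretches also occur in H2-DMb1. In a local alignment of the pair, 1045 aligned bases were 96.0% identical, with 99 gap bases left out of that share. Reads that lie wholly within the shared stretches cannot be told apart. Read length and the handling of such reads were not examined, so the counts of this pair and their split are uncertain.

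Ciita, the transactivator (chr16:10480014-10531064, plus strand, overlapped by Dexi on the minus strand), was at 18.2, 28.1 and 11.5 CPM in the ApoE-/- libraries and at 29.8, 23.1, 35.6 and 21.99 CPM in the DKO libraries. DKO 3 was highest and ApoE 3 lowest, while ApoE 2 lay among the DKO libraries. The means were 19.3 ± 8.36 CPM (SD, n = 3) and 27.6 ± 6.36 CPM (SD, n = 4), or a log2 fold change of 0.52 (SE 0.31, edgeR adjusted p = 0.386; 95% interval 0.86-fold to 2.37-fold). That was the largest fold change of the 8 in this fit. It was 0.25 without ApoE 3, 0.89 without ApoE 2, and -0.04 with the Ptprc covariate, and no alternative gave a call (adjusted p 0.0743 to 0.971). Gene counts do not tell which of the alternative Ciita promoters, used by dendritic cells, B cells or interferon-treated cells, was active.

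**Figure D2:**
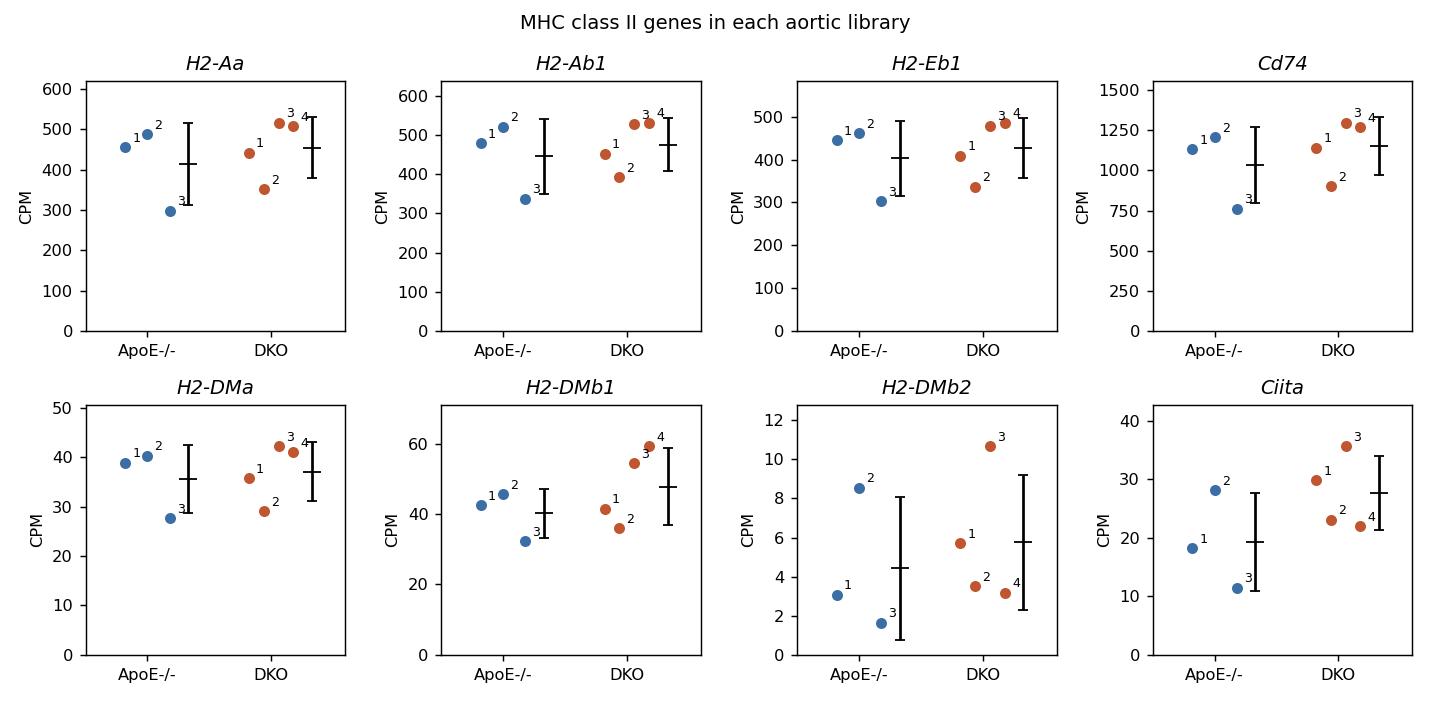
CPM of each member (vertical axes, from 0) in the ApoE-/- libraries (blue) and the DKO libraries (orange), numbered by library, with mean and SD in black. ApoE 3 is the lowest point in every panel, and the groups overlap in all 8.

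Levels between genes were compared on the deposited FPKM, which is scaled for gene length. Averaged over the 7 libraries, Cd74 was highest at 534 FPKM, followed by H2-Ab1 at 325, H2-Aa at 319.6 and H2-Eb1 at 194 FPKM. H2-DMb1 stood at 26.6 FPKM, H2-DMa at 4.55, H2-DMb2 at 3.14 and Ciita at 2.25 FPKM. H2-Ab1 and H2-Aa could not be ordered, with a ratio of 0.997 to 1.06 across libraries, nor could H2-DMb2 and Ciita, whose ranges overlapped (1.44 to 6.68 and 0.983 to 3.42 FPKM). The level of H2-DMa is uncertain on this scale. Its counts nearly matched those of H2-DMb1, but dividing CPM (on raw library totals) by FPKM gave it a length of 8004 bases, 3.99 times its longest coding transcript in GENCODE M21 (2005 bases), where the other members gave 1.14 to 1.79 times theirs. The gene also overlaps Brd2 on the opposite strand, and whether counting used strand is not given in the sources used here.

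Within each library, the classical genes kept nearly fixed proportions. The ratio of Cd74 to H2-Aa CPM was 2.49, 2.47 and 2.56 in the ApoE-/- libraries and 2.58, 2.56, 2.51 and 2.497 in the DKO libraries, a spread of 1.04-fold while the genes themselves varied 1.7-fold. H2-Ab1 over H2-Aa spread over 1.11-fold, H2-Eb1 over H2-Aa over 1.098-fold, H2-DMa over H2-Aa over 1.15-fold and H2-DMb1 over H2-Aa over 1.25-fold. Ciita over H2-Aa was looser, at 0.0400, 0.0576 and 0.0386 in the ApoE-/- libraries and 0.0674, 0.0655, 0.0689 and 0.0432 in the DKO libraries. DKO 1, DKO 2 and DKO 3 were above every ApoE-/- library, and DKO 4 was below ApoE 2. H2-DMb2 over H2-DMb1 spread over 3.87-fold, from 0.0506 in ApoE 3 to 0.196 in DKO 3. The ratios were chosen after the values were seen and carry no test.

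Class II message was also set against Ptprc, the gene of the general leukocyte antigen CD45. Ptprc was at 81.6, 126 and 59.7 CPM in the ApoE-/- libraries and at 163, 136, 186 and 89.9 CPM in the DKO libraries (log2 fold change 0.68, SE 0.32, edgeR adjusted p = 0.282, limma voom adjusted p = 0.0381). H2-Aa over Ptprc was 5.58, 3.86 and 4.99 in the ApoE-/- libraries and 2.72, 2.60, 2.78 and 5.65 in the DKO libraries. DKO 1 to DKO 3 lay below all ApoE-/- libraries, and DKO 4 lay above them all. DKO 4 had the second lowest F4/80 gene level (Adgre1, 53.6 CPM). Yet it was highest or next to highest for H2-Aa, H2-Ab1, H2-Eb1, Cd74, H2-DMa and H2-DMb1. For Ciita, H2-DMb2, H2-Oa, H2-Ob and H2-Eb2 it ranked only 5 of 7 from the top. Fewer cells of a type and less RNA per cell cannot be told apart in these bulk libraries.

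**Figure D3:**
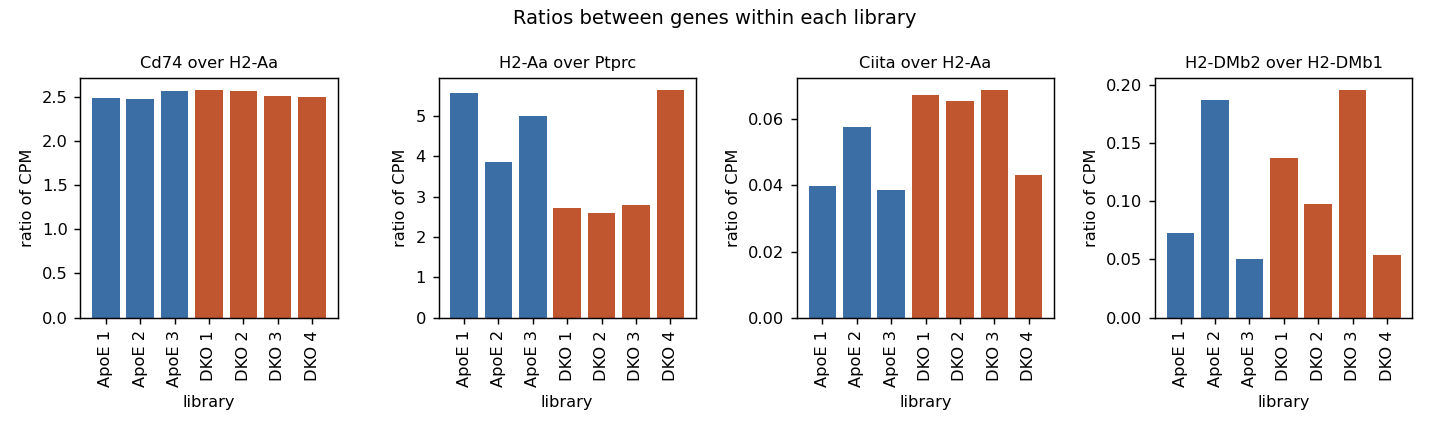
Ratio of CPM between gene pairs (vertical axes, from 0) in each library (horizontal axes; ApoE-/- blue, DKO orange). Cd74 over H2-Aa is nearly flat (2.47 to 2.58), while H2-Aa over Ptprc splits DKO 4 (5.65) from the other DKO libraries (2.60 to 2.78).

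The remaining class II chains varied more between libraries than the abundant genes. H2-Oa and H2-Ob, the DO pair that restrains DM and is best known from B cells, were at 0.655 to 4.96 against 1.45 to 5.95 CPM and at 2.02 to 13.1 against 4.65 to 17.4 CPM. H2-Eb2 was at 0.709 to 3.36 against 1.23 to 5.68 CPM. For each of these genes DKO 3 was highest, ApoE 2 next and ApoE 3 lowest, the order seen for H2-DMb2. None was called (log2 fold changes 0.13, 0.55 and 0.75; edgeR adjusted p 0.607 to 0.938). Their median of 0.55 became 1.63 when ApoE 2 was left out, and 0.31, 0.13 and 0.08 when ApoE 1, ApoE 3 or DKO 3 was.

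The B cell genes, summed, were also highest in DKO 3 and lowest in ApoE 3, though not every gene of the list was. Ms4a1, the gene of the B cell antigen CD20, was at 0.397, 6.89 and 0.164 CPM in the ApoE-/- libraries and at 6.46, 2.30, 11.9 and 0.92 CPM in the DKO libraries. The 11 B cell genes summed to 11.8 to 134 CPM in the ApoE-/- libraries and 38.3 to 166 CPM in the DKO libraries, with none at 0 in every library.

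The T cell marker Cd3e was set against the members over the 7 libraries, with the macrophage marker Adgre1 and the dendritic cell marker Zbtb46, on log2 CPM. These were 24 two-sided relations, adjusted together. For Ciita and Cd3e, Pearson's r was 0.96 (exact permutation adjusted p = 0.0238) and Spearman's rho was 0.96 (exact permutation adjusted p = 0.0667). With ApoE 3 and DKO 3, the libraries farthest from the median of Cd3e, left out, r was 0.79. For H2-DMb2 and Cd3e, r was 0.84 and rho 0.89 (exact permutation adjusted p = 0.140 and 0.0984), and r was 0.39 without the same libraries. For H2-Aa and Cd3e, r was 0.64 and rho 0.43 (exact permutation adjusted p = 0.519 and 0.667), and r was -0.46 without them. Neither Adgre1 nor Zbtb46 passed for any member (exact permutation adjusted p from 0.0810). For Ciita and Adgre1, r was 0.87 and rho 0.93 (exact permutation adjusted p = 0.1 and 0.0810). That r was 0.74 without ApoE 3 and DKO 4, the libraries farthest from the median of Adgre1. For H2-DMb2 and Adgre1, r was 0.77 and rho 0.86, and r was 0.41 without the same libraries. For H2-Aa and Adgre1, r was 0.41 and rho 0.36, and r was -0.15 without them. Whether the relations differ from each other was not tested, and each genotype holds too few libraries for its own value. Ciita over Ptprc, a ratio chosen after the values were seen, was 0.170 to 0.244 across libraries. That is a spread of 1.44-fold, where Ciita itself spanned 3.09-fold. No B cell or general leukocyte gene was among the 24 relations, so a tie of Ciita to T cells in particular was not tested.

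**Figure D4:**
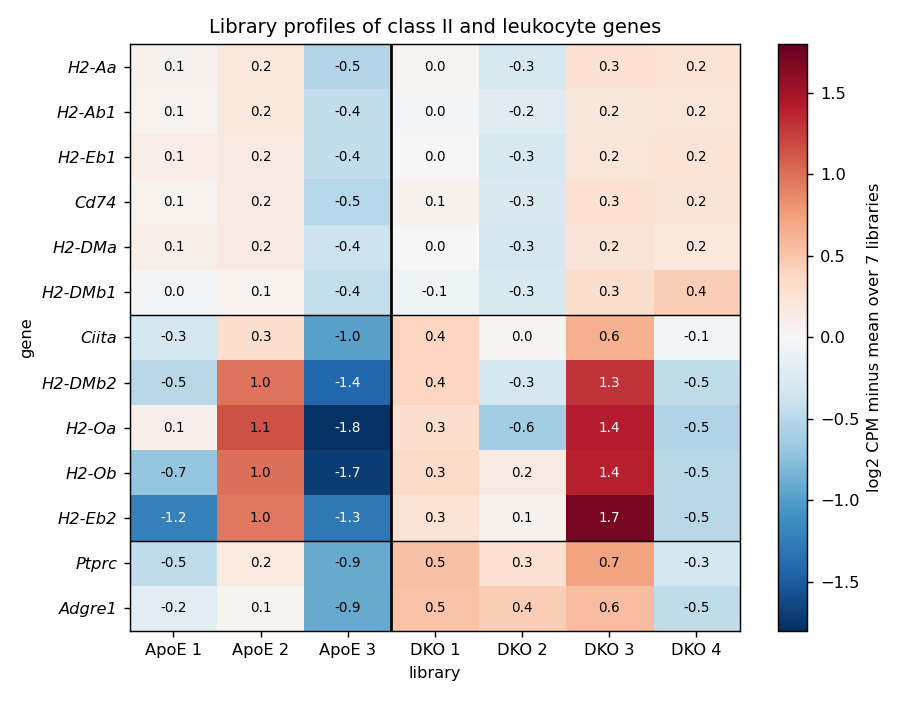
Log2 CPM of each gene (rows) in each library (columns) minus the gene's mean over the 7 libraries, with a line between ApoE-/- and DKO libraries. The upper 6 genes stay within 0.53 of their mean, while Ciita, H2-DMb2 and the chains under it vary more, with H2-Oa lowest in ApoE 3 (-1.8) and H2-Eb2 highest in DKO 3 (1.7).

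Other cells that can carry class II were also present in the libraries. Macrophage genes (12, led by p by the complement gene C1qa, log2 fold change 0.46, SE 0.21, edgeR adjusted p = 0.275) summed to 2715 to 3987 CPM in ApoE-/- and 3049 to 5849 CPM in DKO libraries, and all 12 had positive fold changes (median 0.38). Dendritic cell genes (13, 11 positive, median 0.24) summed to 167 to 239.9 CPM and 191 to 365 CPM, with Fscn1, an actin bundling gene that other cells use too, at 0.90 (SE 0.40, adjusted p = 0.267). Fscn1 (143 CPM) and Itgax (128 CPM) made up most of the 365 CPM in DKO 1. Xcr1 and Clec9a reached no more than 2.31 and 4.62 CPM in any library. Itgax, Xcr1 and Clec9a were named after their values were seen. The dendritic cell regulator Zbtb46, also known from endothelium, was at 19.4 to 23.8 against 21.5 to 26.2 CPM, and the receptor gene Flt3 at 3.27 to 9.33 against 5.16 to 7.15 CPM. The macrophage receptor gene Csf1r was at 177 to 250.9 against 192 to 265 CPM. EdgeR called no gene of these lists. Limma voom called the macrophage Fc receptor gene Fcgr1 (adjusted p = 0.0379). The macrophage median was 0.22 without ApoE 3 and 0.20 without DKO 3, and the dendritic cell median was 0.36 without ApoE 2 and 0.0981 without DKO 3. Among resident macrophage genes, 7 of 8 were negative (median -0.25), and Cd163, a haemoglobin scavenger receptor gene, stood at -1.48 (SE 0.31, edgeR adjusted p = 0.133). DESeq2 and limma voom called Cd163 lower (adjusted p = 0.00113 and 0.033). Limma voom called the mannose receptor gene Mrc1, the 1 positive gene of the list, higher (log2 fold change 0.42, limma voom adjusted p = 0.0498). The resident macrophage median was -0.0575 when DKO 2 was left out, -0.15 for ApoE 2, -0.38 for ApoE 3, -0.39 for ApoE 1 and -0.45 for DKO 3. Monocyte genes had a median of 0.43, with the chemokine receptor gene Cx3cr1 at 1.08 (SE 0.29, edgeR adjusted p = 0.158; DESeq2 0.0102 and limma voom 0.0243). That median was 0.97 without ApoE 2 and 0.20 without ApoE 3. The part of each cell type in the class II levels was not tested.

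T cell and pan-leukocyte genes all had fold changes above 0. Of 9 T cell genes 9 were positive (median log2 fold change 0.90, or 0.54 without DKO 3), with Cd5, a signalling inhibitor, at 0.88 (SE 0.36, edgeR adjusted p = 0.229), and Cd3e at 1.64, 2.44 and 0.655 against 3.93, 3.19, 5.64 and 2.20 CPM. EdgeR called none of them, and limma voom called Cd3e (adjusted p = 0.0498). All 5 pan-leukocyte genes were positive (median 0.60, or 0.34 without ApoE 3), and all 11 B cell genes (median 0.56), with Fcrla at 1.05 (SE 0.72, adjusted p = 0.442). Leaving out DKO 3 moved the median of the B cell genes to -0.14, and leaving out ApoE 3, ApoE 1, DKO 4 or ApoE 2 moved it to 0.0157, 0.20, 0.89 or 2.71. Genes of CD4 T cells that meet class II (6 measured, 5 positive, median 0.49) included the regulatory T cell factor gene Foxp3 at 1.29 (SE 0.61, edgeR adjusted p = 0.287, limma voom adjusted p = 0.0356). Leaving out ApoE 2 raised their median to 0.75, and leaving out ApoE 3 or DKO 3 gave 0.30 or 0.23. Over all 14609 genes 47.4% were positive.

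Genes of the factors that bind the class II promoter were read in all libraries. Of 7 genes, 0 were called by edgeR, DESeq2 or limma voom, and 3 did not overlap between groups, all higher in DKO libraries, where 7.08% of all genes were. Rfx5, the RFX subunit that contacts DNA, was at 22.3 to 22.96 against 23.9 to 30.4 CPM (log2 fold change 0.23, SE 0.11, edgeR adjusted p = 0.302). Nfya, of the CCAAT-binding NF-Y trimer, was at 49.3 to 53.0 against 55.4 to 73.8 CPM (log2 fold change 0.29, SE 0.11, adjusted p = 0.207). Creb1, a factor of the X box, was at 37.3 to 44.0 against 44.7 to 56.4 CPM (log2 fold change 0.29, SE 0.11, adjusted p = 0.206). Rfxap (-0.26), Rfxank (-0.07), Nfyb (0.12) and Nfyc (-0.17) overlapped between groups.

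EdgeR called no gene of peptide supply or interferon signalling, while DESeq2 called Ifngr2 and limma voom called Sppl2a, Cst3, Ifngr2, Jak1 and Iigp1. In the class II processing list, 9 of 12 were positive (median log2 fold change 0.16, between 0.0313 without DKO 3 and 0.29 without DKO 4), and the smallest p was that of Cst3, the cathepsin inhibitor cystatin C, with means of 1764 ± 431 CPM (SD, n = 3) and 1107 ± 244 CPM (SD, n = 4) and an edgeR adjusted p of 0.190 and a limma voom one of 0.0442 (log2 fold change -0.67, SE 0.23). Ctss, the protease that trims CD74, was at 658, 881 and 485 against 1179, 679, 1230.5 and 546 CPM, so DKO 4 was low for it where it was high for Cd74. Marchf1, the ligase that removes class II from the surface, was at 7.91 to 18.9 against 10.8 to 27.2 CPM (log2 fold change 0.68, SE 0.39, adjusted p = 0.364). These last 2 genes were chosen after their values were seen. Ifng itself was at or under the floor, between 0 and 0.149 CPM. Of 16 other interferon gamma genes, 11 were positive (median 0.09, or 0.16 without ApoE 2 and 0.155 without DKO 2). The receptor chain gene Ifngr2 had the smallest p, at 78.8 to 86.1 against 98.2 to 115 CPM without overlap (log2 fold change 0.37, SE 0.09, adjusted p = 0.146 by edgeR, 0.00213 by DESeq2 and 0.046 by limma voom).

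Class I genes went both ways. Of 14, 9 were negative (median log2 fold change -0.17, between -0.0497 without DKO 2 and -0.27 without DKO 4), with the immunoproteasome subunit gene Psmb10 at 40.3 to 47.2 against 29.7 to 35.5 CPM (log2 fold change -0.41, SE 0.10, edgeR adjusted p = 0.148, DESeq2 adjusted p = 0.0245). The peptide-loading chaperone genes Calr and Pdia3, chosen after their values were seen, were higher in DKO libraries without overlap (0.31 and 0.35, edgeR adjusted p = 0.214 and 0.162, DESeq2 adjusted p = 0.0325 and 0.00143), and limma voom called the peptidase gene Erap1 (adjusted p = 0.0402). Costimulatory and checkpoint ligands had a median of 0.31 (5 of 6 positive; 0.13 without DKO 3, 0.16 without ApoE 1, 0.50 without ApoE 2), with the ICOS ligand gene Icosl at -0.44 (SE 0.19, adjusted p = 0.256). Lists of other wall and border cells had medians of -0.15 (endothelial, Tek -0.26), -0.24 (smooth muscle, Tagln -0.39), -1.05 (white adipocyte, Cidec -0.99) and -5.81 (cardiomyocyte, Myl4 -3.69), again with 0 calls by edgeR. DESeq2 called all 5 adipocyte genes and Myl4, and limma voom called 4 of the adipocyte genes. The smooth muscle median ran from -0.69 without DKO 4 to -0.0131 without DKO 1, the endothelial one from -0.24 without ApoE 2 to -0.0421 without DKO 2, and the cardiomyocyte one was 1.62 without ApoE 2 and ApoE 3 together. Over all the further lists, DESeq2 called 12 of 145 genes (8.28%, beside 8.03% of all genes) and limma voom 17 of 146 (11.6%, beside 16.2%).

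The genes most like the members were found by Pearson's r over the 7 libraries with the mean log2 CPM of the 8 members, among 13018 other genes with a mean log2 CPM of at least 1. The top 10 were Ptprcap (r = 0.99), a CD45-associated protein gene, 0610007P14Rik (0.97), Ifi30 (0.96), Clec12a (0.96), Rpl34-ps1 (0.95), Cfp (0.95), Ctsw (0.95), Cd7 (0.95), Itgb7 (0.94) and Mzb1 (0.94). Ifi30 encodes the endosomal reductase that unfolds antigen for class II, and was at 114, 143 and 92.9 CPM against 127, 109, 137 and 121 CPM. Cfp encodes properdin of complement and Clec12a a myeloid lectin. The mean gives H2-DMb2 and Ciita more weight than the steadier genes, and with any library left out between 1 and 4 of these 10 genes were kept.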

How the data were processed

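Polyadenylated RNA was sequenced from strand-marking libraries, per the labels' protocols. The submitters' processing notes name Trimmomatic, HISAT2, HTSeq, Cufflinks and DESeq with GRCm38.p6, and no versions or roles. The authors deposited raw gene counts, not normalised, and FPKM values scaled for gene length and depth. For annotation, strand setting and filters the sources used here give nothing. Columns were matched to samples by genotype and number in their names, and 27 symbols stored as dates were restored through gene identifiers.

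Genes passing filterByExpr (minimum count 10) were scaled by TMM and tested with edgeR 4.0.16 (quasi-likelihood, Benjamini-Hochberg over all tested genes, threshold 0.05; R 4.3.3), 3 libraries against 4. The script was tested on simulated data. The SE of a log2 fold change is its size divided by the root of the F statistic. CPM use TMM-scaled sizes, and log2 CPM a prior count of 2. No 2 libraries repeated each other (lowest chi-square per gene 35.2). The members, lists and tests were chosen with earlier results of these data known. Named genes were the members, the other class II chains, promoter factors and antigen-presenting cell markers, the gene of smallest p in each further list, and the 10 most similar genes. Alternatives were RLE scaling, DESeq2 1.42.0, limma 3.58.1 (voom, and log2 FPKM with pseudocount 1 or 0.1), other filters, the replicate number as a block and each library left out. The Ptprc covariate and leaving out ApoE 2 with ApoE 3 were chosen after seeing the data. Results for 1 of the cell type markers are not reported here.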

Additional observations from a re-analysis of the deposited data

Results flagged for a closer look

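In 4 ratios of CPM, DKO 4 lay farther from the other 3 DKO libraries than Dixon's 95% limit for 4 samples allows. H2-Aa over Ptprc was 5.65 in DKO 4, Cd74 over Ptprc was 14.1, H2-DMb1 over Ptprc was 0.658 and Ciita over H2-Aa was 0.0432. The ratios share genes and so are not independent, and they were chosen after the values were seen. They were 4 of 25 quantities examined. The 1 in 20 that chance would mark does not hold for ratios picked in this way, so the limit is used as a description only. No single member's level was marked.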

How the results depend on the processing

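Under 18 alternatives no member was called. H2-DMb1 kept its direction in all 18, and the other members changed sign in 1 to 4 of them. With 1 library left out, log2 fold changes ran from -0.0528 to 0.2723 (H2-Aa), -0.0715 to 0.2214 (H2-Ab1), -0.0849 to 0.2018 (H2-Eb1), -0.0227 to 0.2815 (Cd74), -0.0969 to 0.1735 (H2-DMa) and -0.10 to 1.29 (H2-DMb2), each lowest without ApoE 3 except H2-DMb2, lowest without DKO 3 and -0.0125 without ApoE 3. H2-DMa was -0.0115 without DKO 3. Without ApoE 2 and ApoE 3 the values were -0.0043 (H2-Aa), -0.0112 (H2-Ab1), -0.0625 (H2-Eb1) and -0.0736 (H2-DMa), with the lone ApoE-/- library assumed to vary like the rest. With Ptprc as a covariate they were -0.0226 (H2-Aa), -0.0369 (H2-Ab1), -0.0332 (H2-Eb1), -0.0011 (Cd74), -0.071 (H2-DMa), -0.72 (H2-DMb2) and -0.0371 (Ciita). The cause was not tested. The members' median stayed within their spread between libraries (SD 0.36 log2 CPM), at -0.04 to 0.28 with 1 library left out.

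Over all genes, edgeR called 0 higher and 4 lower. DESeq2 called 453 higher and 673 lower, and limma voom 902 and 1467. With 1 library left out, 0 to 4 were higher and 0 to 2 lower. Limma on FPKM with a minimum mean of 1 called 1 higher at either pseudocount, and unfiltered 0 lower. With the Ptprc covariate, or without ApoE 2 and ApoE 3, 0 were lower. In the further lists DESeq2 called 12 genes and limma voom 17, edgeR 0. The replicate block on replicates 1 to 3 called 0 lower, as did those 6 libraries without the block, and gave a median of 0.10 for the members. No pairing by number was evident. Deviations of same-numbered libraries correlated at -0.39, 0.70 and 0.0036, and libraries did not each correlate best with their own number. Deviations from a group mean are not independent of each other, so these values cannot exclude pairing. Of 324 recomputed list medians, 279 stayed within that SD and 12 changed sign. Depth limits H2-DMb2, H2-Oa, H2-Eb2 and Ms4a1 (30, 12, 13 and 3 counts in ApoE 3), other rare lymphocyte genes, and Ifng.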

Other observations

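H2-DMb2 was the member whose deposited FPKM and counts kept the loosest proportion: CPM (on raw library totals) over FPKM ran from 1.08 in ApoE 3 to 2.02 in DKO 4, while for H2-DMb1 the ratio was 1.64 to 1.73 and for Cd74 2.02 to 2.14. On FPKM, H2-DMb2 over H2-DMb1 was lowest in DKO 4 (0.0446) and on counts in ApoE 3 (0.0506). The gene closest to Ciita over the 7 libraries was Ly86 (r = 0.998), which encodes the partner of the B cell and myeloid receptor RP105, and the genes closest to H2-DMb2 were Akr1c13 (r = 0.99), Napsa (r = 0.99) and Btla (r = 0.99), the last an inhibitory receptor of lymphocytes. These are the highest of 13018 values each and are a description.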
